A study of Mus musculus with 30 samples.

Results

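The adhesion receptors of the platelet surface were followed through the platelet and peripheral blood mononuclear cell (PBMC) libraries of a mouse melanoma model. They were represented by 10 genes of the 54532 in the count tables, taken by name: Gp1ba, Gp1bb, Gp5 and Gp9 of the GPIb-IX-V complex, Itga2b and Itgb3 of integrin alphaIIb-beta3, the integrin subunits Itga2, Itga6 and Itgb1, and the tetraspanin Cd9. All mice were female C57BL/6 and 6 to 8 weeks old when the study began, and the B16F10 cells that some received are a melanoma line of the same strain. C group was injected with HBSS, S group with 2000 B16F10 cells and O group with 100000 B16F10 cells per mouse, under the skin of the right flank, and blood was drawn on day 14. Each group gave 5 platelet and 5 PBMC libraries, 30 in all. Each library was a pool, so that no value belongs to a single mouse. The labels give 5 or 10 mice for a platelet pool of C group, 10 for S group (the study's methods give slightly different numbers for some of these) and 3, 4, 5, 3 and 5 for O group, while PBMC pools held 5 mice in C group, 4 or 5 in S group and again 3, 4, 5, 3 and 5 in O group. PBMCs were prepared from what remained of the blood after platelet-rich plasma had been drawn off, and no sorting of cell types is described for either preparation.

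Platelets are shed by megakaryocytes and carry megakaryocyte mRNA. GPIb-IX-V is the receptor for von Willebrand factor and catches platelets at a damaged vessel wall under fast flow, and its loss causes Bernard-Soulier syndrome, a bleeding disorder. Integrin alphaIIb-beta3, the most abundant platelet integrin, binds fibrinogen once the platelet is activated and so joins platelets to each other, and its loss causes Glanzmann thrombasthenia. The integrin subunit beta1 pairs with alpha2 to bind collagen and with alpha6 to bind laminin, and CD9 is a membrane protein that associates with integrins.

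The promoters of 3 genes of the GPIb-IX-V complex are shown as those of the complex whose levels could be read, because factors of the GATA and ETS families drive megakaryocyte genes. Each is the 250 bases before the start of the RefSeq transcript in GRCm38.p6, written 5′ to 3′ along the gene. Capitals mark matches to the GATA letters (AGATAA or TGATAA or AGATAG or TGATAG) and to the ETS letters (CGGAAG or AGGAAG) on either strand, and no match of one kind overlapped one of the other. The windows lie at chr11:70638872-70639121, plus strand for Gp1ba, at chr16:30310782-30311031, minus strand for Gp5 and at chr6:87777820-87778069, plus strand for Gp9.
Gp1ba: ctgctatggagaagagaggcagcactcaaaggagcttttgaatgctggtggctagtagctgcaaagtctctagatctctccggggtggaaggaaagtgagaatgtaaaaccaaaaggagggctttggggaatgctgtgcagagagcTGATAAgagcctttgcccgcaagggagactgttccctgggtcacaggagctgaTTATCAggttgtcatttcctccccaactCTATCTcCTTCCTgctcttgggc
Gp5: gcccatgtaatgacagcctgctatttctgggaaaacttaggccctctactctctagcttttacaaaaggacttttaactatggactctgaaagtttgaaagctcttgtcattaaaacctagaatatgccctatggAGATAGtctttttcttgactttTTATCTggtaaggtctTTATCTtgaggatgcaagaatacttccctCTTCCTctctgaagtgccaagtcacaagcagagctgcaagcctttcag
Gp9: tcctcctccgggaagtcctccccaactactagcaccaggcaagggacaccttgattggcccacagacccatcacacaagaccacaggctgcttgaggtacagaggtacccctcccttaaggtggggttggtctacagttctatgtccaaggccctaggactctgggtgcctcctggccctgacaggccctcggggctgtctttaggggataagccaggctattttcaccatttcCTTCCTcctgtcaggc
The windows of Gp1ba and Gp5 each held 3 GATA matches and 1 ETS match, and that of Gp9 held 1 ETS match and no GATA match. Among 32851 mouse promoters of the same length, 26.5% held a GATA match, 39.2% an ETS match and 9.21% both. A match describes letters only and no binding was measured. RefSeq entries were found for 8 of the 10 members, the others being Itgb3 and Itga6. Over these 8 windows, a GATA match was present in 3 (Gp1ba, Gp5 and Gp1bb) and an ETS match in 7, all but Itga2. The window of Itga2b (chr11:102469884-102470133) lies mostly inside the annotated gene, with 180 of its 250 bases in exons. Those of Gp1bb and Cd9 lie in annotated exons over all 250 bases. For these windows, matches or their lack need not describe the bases before the first start of the gene.

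Total counts on genes were 12259036 to 25360080 per platelet library and 13390983 to 15973449 per PBMC library. The 10 platelet markers (Pf4, Ppbp, Tubb1, Treml1, Clec1b, Gp6, Nrgn, Rgs18, Alox12 and Myl9) were detected in every library of both kinds, and their summed level was 19774 to 96319 counts per 1000000 (CPM, TMM-normalized over all 30 libraries) in platelets and 597 to 5953 CPM in PBMCs. The platelet libraries also held transcripts of other cells: the 10 B cell markers summed to 605 to 2226 CPM there and to 1338 to 2641 CPM in PBMCs, the 10 T cell markers to 333 to 759 and 684 to 1357 CPM, and hemoglobin genes took 4.02 to 39% of the counts of a platelet library. In such bulk RNA, fewer cells of a type and less RNA per cell cannot be told apart. The libraries O1 and O4, both pools of 3 mice, stood apart from the rest in both tissues by the ratio of Cd9 to Itga2b counts, among other measures.

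All members but Gp1bb were abundant in platelets. Gp9, a small subunit needed for the complex to reach the surface (chr6:87778072-87779768), had 6049, 4242, 2032, 2643 and 2019 CPM in C group, 2759, 3009.6, 4583, 2171 and 1558 CPM in S group and 5599, 4632, 2177, 7795 and 1029 CPM in O group. The 3 groups overlapped, and the highest and the lowest library were both in O group. Gp1ba, the subunit that binds von Willebrand factor (chr11:70639122-70642036), had 917, 477, 186, 458 and 392 CPM in C group, 341, 341, 554, 269 and 344 CPM in S group and 548, 571, 264, 848 and 173 CPM in O group. The spread within C group, 4.94-fold between its ends, was wider than that within S group, 2.06-fold. Gp5, the thrombin-sensitive subunit (chr16:30307685-30310779), ranged from 647 to 2604 CPM in C group, from 847 to 1864 CPM in S group and from 522 to 1707 CPM in O group. All 3 groups overlapped for it as well.

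Gp1bb, the subunit linked to Gp1ba by a disulfide bond, could not be read. It had 0 to 39 counts in a platelet library and 0 to 2 in a PBMC library, and it did not pass the filter on low counts in any comparison. Of the 2087 exon bases of Gp1bb (chr16:18620317-18622403), 1938 (92.9%) also lie in exons of Sept5 or Gm49601 on the same strand. Reads there cannot be assigned to a single gene, and how they were counted is not given in the sources used here, so 9 of the 10 members were tested. The exons of Cd9 overlap Gm26728 on the other strand over 218 bases (10.7%), where reads cannot be told apart without strand, and the exons of the other 8 members overlap no other annotated gene.

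Itga2b, the alpha subunit of the fibrinogen receptor (chr11:102453297-102470122), had 18790.3, 12271, 5835, 8928 and 6669.6 CPM in C group, 8663, 9057, 14135, 6831 and 6701 CPM in S group and 15111, 14702, 7049, 18150 and 4223 CPM in O group. Its partner Itgb3 (chr11:104608000-104670476) had 5282, 3027, 1165, 2634 and 2171 CPM in C group, 2394, 2513, 3699, 2076 and 2326 CPM in S group and 4352, 4351, 2431, 5972 and 1515 CPM in O group. For both genes the groups overlapped, C1 and O4 were the 2 highest platelet libraries, and S group was the least spread of the 3. Cd9 (chr6:125460266-125494791) had 11682, 12949, 6090, 7828 and 6086 CPM in C group, 8976, 8686, 13539.8, 6441 and 5051 CPM in S group and 3031, 14279.8, 6173, 8271 and 3207 CPM in O group, and here O1, high for Itga2b, was the lowest library of all 15. Itgb1 (chr8:128685654-128733200) ranged from 801 to 2712 CPM over the 15 libraries, Itga6 (chr2:71745616-71858416) from 1133 to 3699 CPM and Itga2 (chr13:114833081-114932100) from 87.2 to 327 CPM. The highest library of all 15 was O2 for Itgb1, Itga6 and Itga2.

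**Figure D1:**
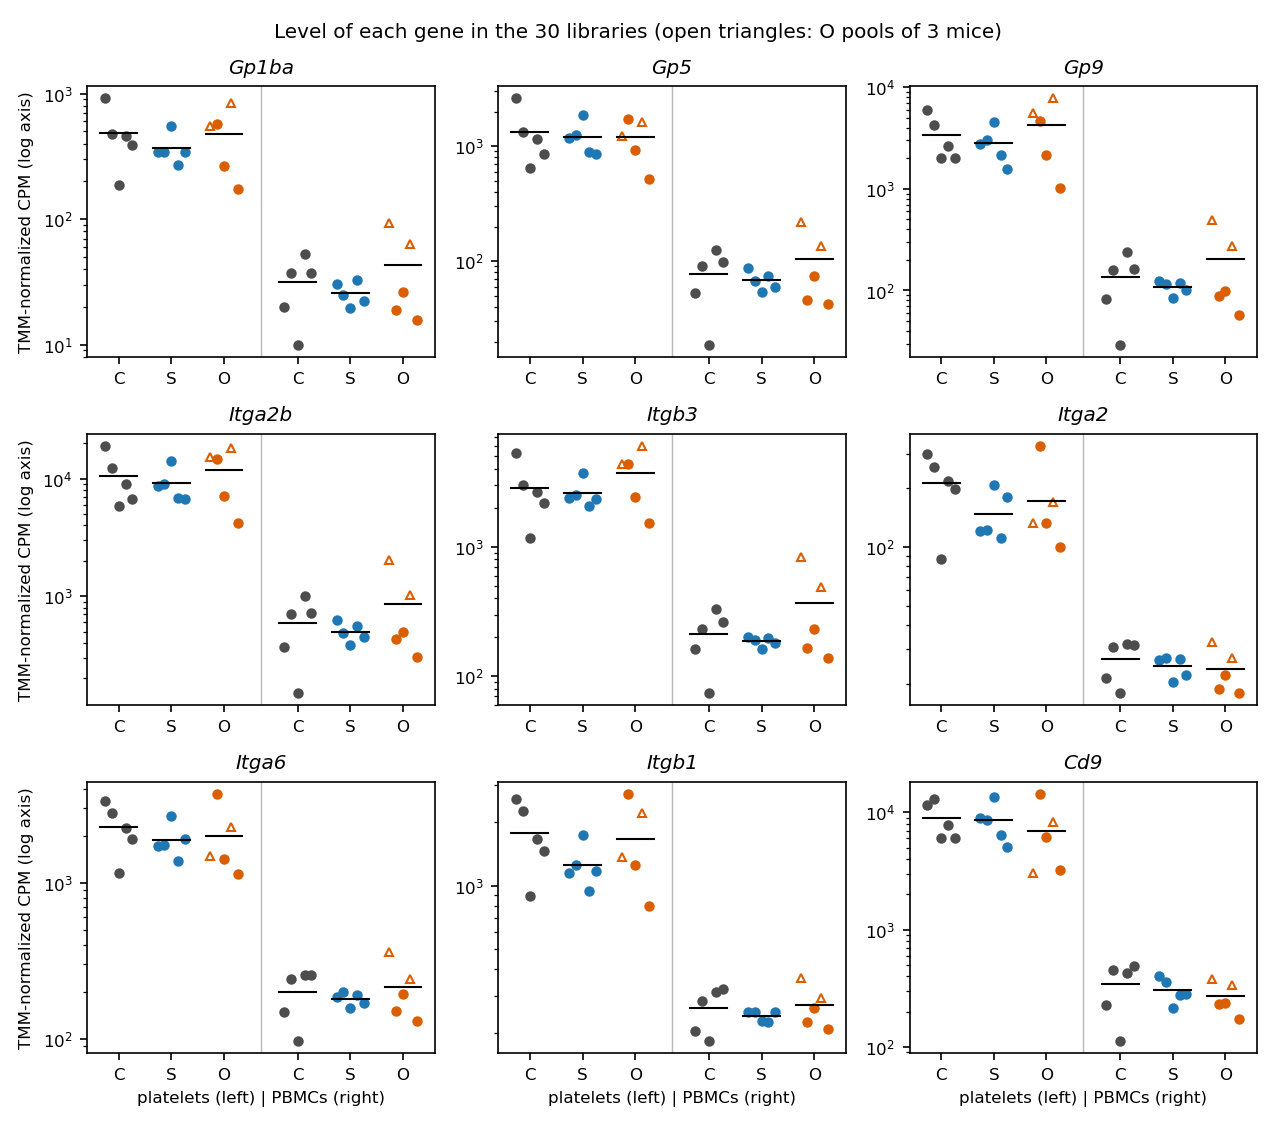
Level of each of the 9 measurable genes in every library, as TMM-normalized CPM on a log axis, for C group (grey), S group (blue) and O group (orange) in platelets (left of the line) and PBMCs (right), with a bar at the mean of the 5 libraries and open triangles for the O pools of 3 mice. On this scale platelet libraries lie above PBMC libraries (relative to platelet markers 7 of the 9 genes are lower in platelets), the groups overlap within each tissue, and both triangles are the 2 highest PBMC libraries for Itgb3 (829 and 487 CPM).

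Levels of different genes were compared per kilobase of exon, as mean ± SD over the 15 platelet libraries. Cd9 was at 3989 ± 1748 CPM per kb, Gp9 at 3957 ± 2179 and Itga2b at 1920.5 ± 857. The SD holds variation between libraries that the genes share, so their order was read within libraries. Cd9 was above Gp9 in 12 of 15 libraries, so that this order did not hold throughout, whereas Gp9 was above Itga2b in 15 of 15. Gp5 was at 564 ± 244 CPM per kb, Itgb3 at 519 ± 234, Itgb1 at 383 ± 151, Itga6 at 229 ± 86.4 and Gp1ba at 164 ± 80.2. Gp5 exceeded Itgb3 in 11 of 15 libraries, an order that did not hold throughout either, while Itgb1 exceeded Itga6 in 15 of 15. Itga2 was the lowest of the 9, at 24.9 ± 10.3 CPM per kb, and stayed below Gp1ba in 15 of 15 libraries. In PBMCs Itgb1 stood between Itga2b and Itgb3, at 63.1 ± 12.1 CPM per kb, above Itgb3 (43.4 ± 31.3) in 13 of 15 libraries.

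**Figure D2:**
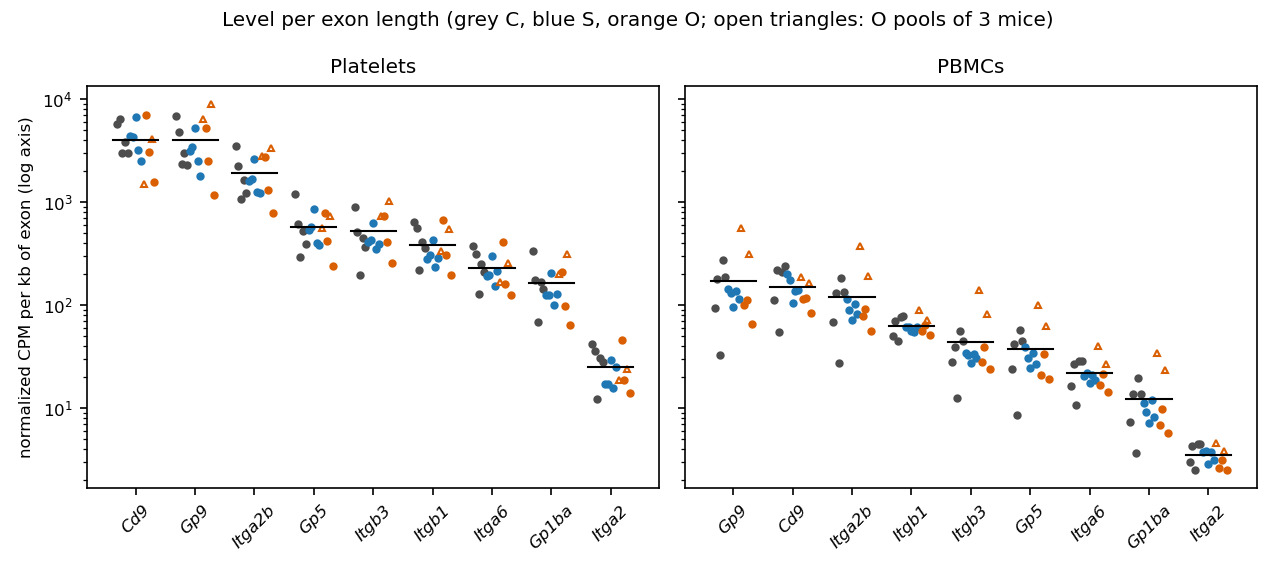
Level per kilobase of exon on a log axis in the 15 platelet and the 15 PBMC libraries, genes ordered by their mean (bar), points coloured by group and open triangles for the O pools of 3 mice. In platelets the means fall from 3989 CPM per kb for Cd9 to 24.9 for Itga2, and in PBMCs Itgb1 ranks before Itgb3 and Gp5.

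The members moved together from library to library. Over the 15 platelet libraries, Pearson's r of log2(CPM + 1) was 0.88 to 0.98 for the 10 pairs among Gp1ba, Gp5, Gp9, Itga2b and Itgb3, and 0.91 to 0.95 for the 3 pairs among Itga2, Itga6 and Itgb1. Between these sets it was 0.54 to 0.89. Without O1 and O4 it was 0.85 to 0.98 within the first set, 0.95 to 0.97 within the second and 0.71 to 0.95 between them. Cd9 followed the 5 genes of GPIb-IX-V and alphaIIb-beta3 less closely, at 0.43 to 0.73, and without O1 and O4 at 0.79 to 0.97 over 13 libraries. These are descriptions, since the 2 levels of a pair share their library and with it its share of platelet RNA.

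Among 7737 genes of at least 10 CPM on average that are not members, those closest to the mean log2(CPM + 1) of Gp1ba, Gp1bb, Gp5, Gp9, Itga2b and Itgb3 over the 15 platelet libraries were Zyx, which encodes the focal adhesion protein zyxin (r = 0.993), the glycolytic enzyme gene Pkm (0.989), Necap2 (0.989), the mucin gene Muc13 (0.989) and the growth factor gene Tgfb1 (0.987). Inpp5a, Rbpms2, the leukocyte integrin subunit Itgb2, Agtrap and Csrp1 followed, with r from 0.98 to 0.987. Without Gp1bb in the mean, 5 of these 10 genes remained among the closest 10. Leaving out the 2 libraries farthest from the median of that mean, C1 and O4, left r between 0.974 and 0.993 for the 10.

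Ratios within a library do not depend on its depth or on RNA that holds neither gene. The count of Itga2b was 3.56, 4.05, 5.01, 3.39 and 3.07 times that of Itgb3 in C group, 3.62, 3.6, 3.82, 3.29 and 2.88 times in S group and 3.47, 3.38, 2.9, 3.04 and 2.79 times in O group. The groups overlapped, and O group against C group differed by -0.28 on the log2 scale (exact permutation test, two-sided, p = 0.0556, 0.222 after adjustment over 16 tests). The smallest p that 5 against 5 libraries allow is 0.00794. For Gp1ba to Gp9 the groups differed by -0.036 (S against C), 0.16 (S against O) and -0.19 (O against C), and for Gp5 to Gp9 by 0.20, 0.43 and -0.23. None of these passed, with the smallest exact permutation p at 0.191. Without the O pools of 3 mice the difference between S group and O group was 0.022 for Gp5 to Gp9 and -0.000185 for Gp1ba to Gp9, and that between O group and C group 0.18 and -0.036. Gp1bb to Gp9 rests on too few counts to be read.

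In O1 and O4 the collagen, laminin and tetraspanin members were low beside Itga2b. The count of Cd9 was 0.201, 0.971, 0.876, 0.456 and 0.759 times that of Itga2b in the 5 platelet libraries of O group, with the first and the fourth value at O1 and O4, against 0.622 to 1.06 times in the other 13 platelet libraries. In the PBMC libraries of O group it was 0.187, 0.545, 0.476, 0.326 and 0.565 times, with O1 and O4 again below the other 13, which held 0.428 to 0.748 times. The PBMC pools may hold the same mice as platelet pools of like number, so they need not be a separate observation. Itga6 to Itga2b was 0.099 in O1 and 0.126 in O4 in platelets, against 0.179 to 0.287 in the other 13. Itga2 to Itga2b, too, was lowest in these 2 libraries of each tissue. Itgb1 to Itga2b was 0.0903 in O1 and 0.122 in O4 in platelets, against 0.123 to 0.218 in the other 13, so that O4 was barely below them. This pattern was seen in the values and then described, so it carries no test. In platelets hemoglobin took 39% of the counts in O1 but 4.29% in O4. The 10 neutrophil markers summed to 5078 CPM in platelet O1 and 524 CPM in platelet O4, against 229 to 1065 CPM in the other platelet libraries. The part of these in the ratios was not tested.

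**Figure D3:**
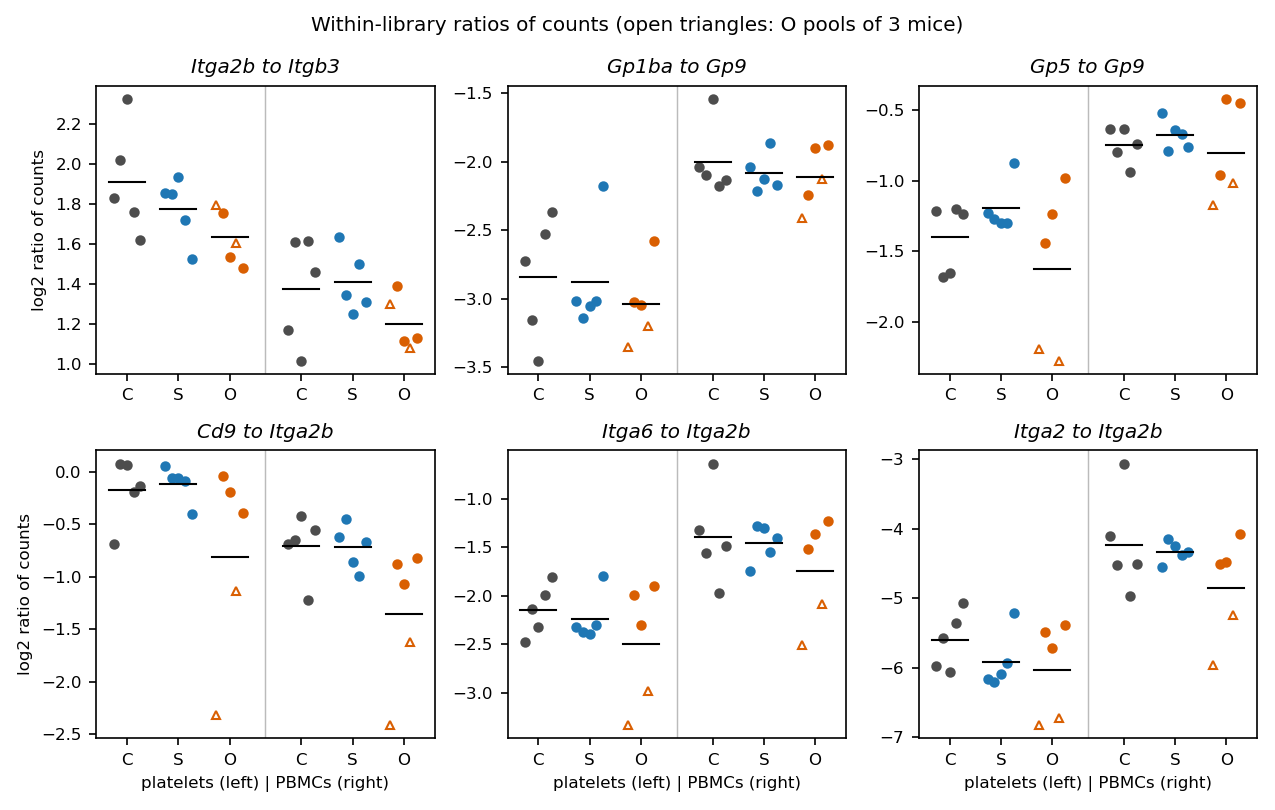
log2 ratio of the counts of 2 genes within each library (0.5 added to each count), by group in platelets (left of the line) and PBMCs (right), with a bar at the mean of 5 libraries and open triangles for the O pools of 3 mice. The upper panels show ratios within a receptor, where platelets and PBMCs differ and the groups overlap, and the lower panels show Cd9, Itga6 and Itga2 against Itga2b, with both triangles lowest in each tissue.

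The first question for platelets was whether mice given the small number of cells, which had no visible tumor at day 14, differ from controls. Not every mouse of S group need have carried a growing tumor, since by the study's account such pools include mice that may never form one. Between S group and C group, 0 of the 9 members tested passed an unadjusted P under 0.05 in edgeR's quasi-likelihood F test, and DESeq2 also passed 0. Of all 13268 genes tested, 6.42% passed. The log2 fold changes (S minus C, ± SE, 5 against 5 libraries) were -0.35 ± 0.33 for Gp1ba, -0.093 ± 0.34 for Gp5, -0.23 ± 0.35 for Gp9, -0.17 ± 0.36 for Itga2b and -0.092 ± 0.33 for Itgb3. The median of the 9 was -0.23, against -0.015 for all genes. The sizes nearest to the threshold were those of Itga2 (-0.47 ± 0.28, adjusted P = 0.771 in edgeR) and its partner Itgb1 (-0.46 ± 0.27, adjusted P = 0.773 in edgeR), whose groups overlapped. Both passed the unadjusted threshold when C3, the lowest C library for either gene, was left out (-0.66 and -0.61), and when S3 was left out (-0.62 and -0.60). The 95% intervals of the fold S over C reached from 0.478 at the lowest to 1.6 at the highest over the 9 members. Of the negative values, those of Gp5, Itga2b, Itgb3, Itga6 and Cd9 became positive once the libraries were scaled to 10 platelet markers (0.17, 0.076, 0.20, 0.014 and 0.13), where 0 members passed.

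The mice of O group, whose tumors could be felt by day 14, were set against both other groups. Between S group and O group, 0 of 9 members passed in edgeR and in DESeq2, where 13.9% of 13306 genes passed in edgeR. Values ran from -0.51 ± 0.48 for Gp9 to 0.39 ± 0.44 for Cd9, with a median of -0.29 against -0.014 for all genes. Without the O pools of 3 mice the value of Gp9 was 0.18, that of Gp1ba 0.22, that of Itga2b 0.14 and that of Itga6 -0.059, each of the other sign, and 0 members passed. Between O group and C group, again 0 of 9 passed by either tool, with 4.79% of 13270 genes called by edgeR. Itgb3 had 0.35 ± 0.46 and Cd9 -0.42 ± 0.47, the ends of the range, and without the O pools of 3 mice Itgb3 had -0.081 and Cd9 -0.22, with 0 members past the threshold. The 95% intervals of the fold reached from 0.34 to 2.56 for S over O and from 0.369 to 2.71 for O over C. The S comparisons share the S libraries and the O comparisons the O libraries, so they are not independent of each other.

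**Figure D4:**
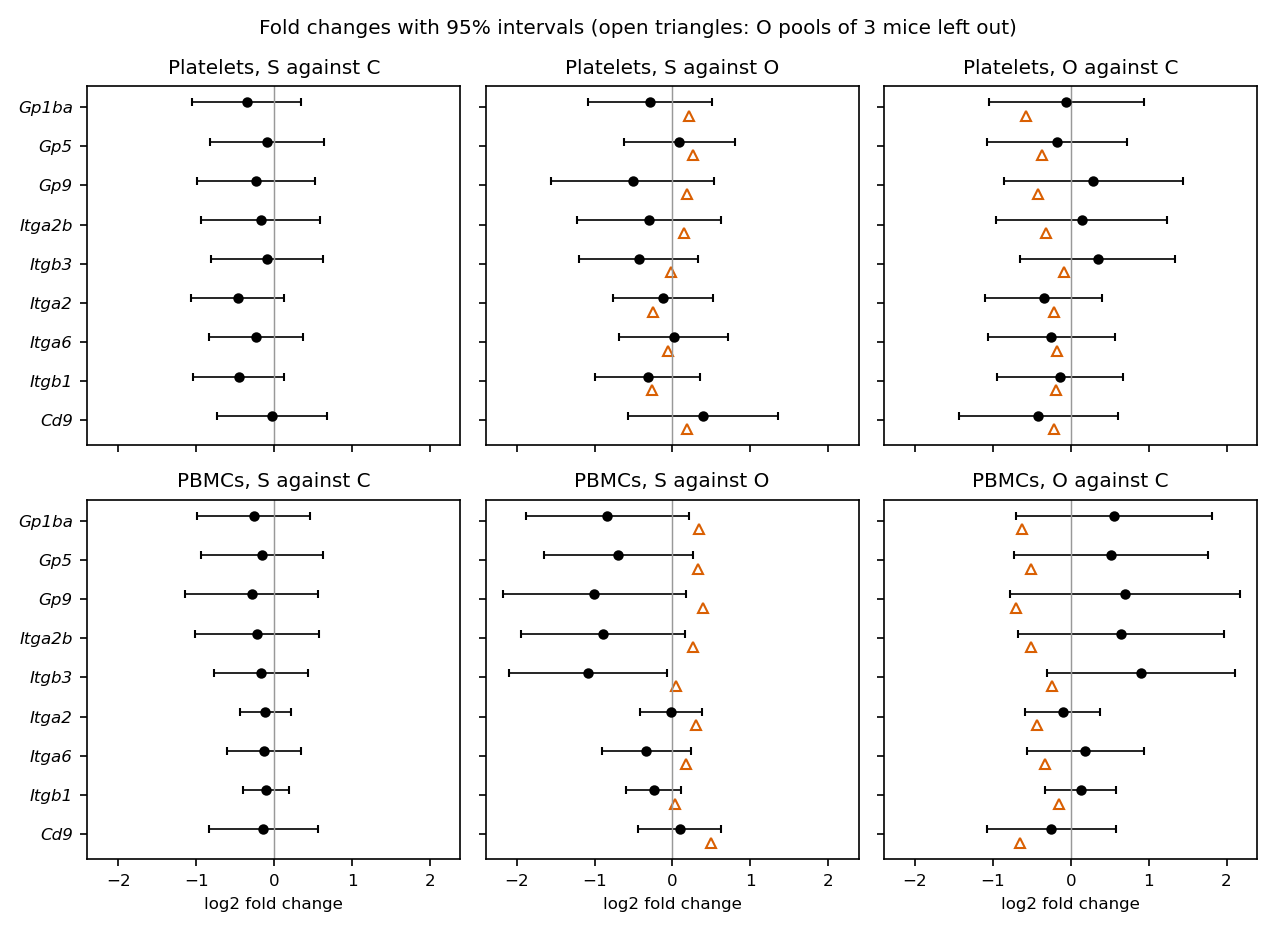
log2 fold change of each gene with its 95% interval (edgeR, 5 against 5 libraries) in the 3 pairs of groups for platelets (upper panels) and PBMCs (lower panels), with open triangles for the value without the O pools of 3 mice. All intervals but that of Itgb3 in PBMCs of S group against O group (-2.1 to -0.0756) include 0, and in PBMCs the triangles of Gp1ba, Gp5, Gp9, Itga2b and Itgb3 lie on the other side of 0 from the full fits.

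Genes that work with these receptors were read from 5 lists, beside shares of all genes called of 6.42% between S group and C group, 13.9% between S group and O group and 4.79% between O group and C group. Of the ligands and shedding enzymes (Vwf, Thbs1, Adam17 and others, 5 of 8 tested), 0 passed between S group and C group and between S group and O group, and Adam17, the sheddase of GPIb-alpha, was lower in O group than in C group (-0.60 ± 0.21, adjusted P = 0.91 in edgeR). Relative to platelet markers 1 of the 5 was higher in S group than in C group. With 1 library left out, 1 passed between S group and C group (without C1, S2 or S4) and 1 between S group and O group (without S2, S4 or O3). Of 18 cytoplasmic partners, 0 passed between S group and C group, and between S group and O group the kinase gene Src was higher in S group (0.80 ± 0.22) while Flna, which encodes the filamin that anchors GPIb (-1.27 ± 0.50), and Apbb1ip, which encodes the talin recruiter RIAM (-0.38 ± 0.15), were lower. Between S group and C group, 1 of the 18 passed as higher in S group relative to platelet markers, and 1 passed without C1. Of 12 other integrin subunits, Itgb7 of lymphocytes was higher in S group than in C group (0.89 ± 0.31), and 4 were higher in S group than in O group, among them Itgb7 (1.31 ± 0.34), Itgax (0.94 ± 0.33) and Itga3 (1.36 ± 0.52). The B cell markers summed to 1138 to 2226 CPM in platelets of S group, 1110.2 to 1319 CPM in C group and 605 to 1345 CPM in O group, and their part in these differences was not tested. Of 14 other platelet glycoproteins and tetraspanins tested, 0 passed in any of the 3 platelet comparisons in edgeR with TMM. Between S group and O group, 1 of the 12 that DESeq2 tested was higher in S group, as were 2 of 14 relative to platelet markers and 1 of 14 without the O pools of 3 mice, and without these pools 1 of 14 was lower in O group than in C group. With 1 library left out, up to 3 of 14 passed between S group and O group (without O1, O2 or O5), up to 2 between O group and C group (without O1 or O2) and 1 between S group and C group (without C2). Of 10 megakaryocyte transcription factors, Meis1 was higher in S group than in C group (0.64 ± 0.25) and Zfpm1, the GATA1 cofactor gene, lower in S group than in O group (-1.06 ± 0.43). Without the O pools of 3 mice, Flna (-0.21), Zfpm1 (-0.063) and Adam17 (-0.42) no longer passed in edgeR. Relative to platelet markers, 0 of the 12 other integrin subunits passed between S group and O group (Itgb7 1.16, Itgax 0.99 and Itga3 1.20), nor did Src (0.78), Apbb1ip (-0.51), Zfpm1 (-0.94) or, between O group and C group, Adam17 (-0.25). In that scaling 2.95% of all genes passed between S group and O group and 2.02% between O group and C group. The SE between S group and O group was 0.55 for Itgb7 and 0.43 for Src there, so a gene that did not pass says little. In the same scaling 4 of the 10 transcription factors passed as higher in S group than in C group. That scaling moved the median of all genes up by 0.17 in the latter comparison, and it called 3.49% of all genes higher and 0.211% lower. With 1 library left out, the number of transcription factors passing between S group and C group ran from 0 (without C4, S1, S2 or S3) to 5 (without C1), and between S group and O group from 0 (without O4) to 5 (without O2), and that of integrin subunits between S group and O group from 2 (without S5) to 5 (without O1). None of the genes named here passed an adjusted P under 0.05 in edgeR, and Itgb7 between S group and O group did so in DESeq2 (adjusted P = 0.0246).

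The PBMC preparation still held platelet transcripts, so that a member's level there sums what platelets and leukocytes contribute. Itgb3 had 164, 232, 74.3, 328 and 262 CPM in C group, 201, 191, 163, 196 and 181 CPM in S group and 829, 164, 230.1, 487 and 139.6 CPM in O group. O1 and O4 were the 2 highest of all 15 libraries, and the other 3 O libraries lay within the range of C group. Itga2b had 369.7, 707, 150.4, 1004 and 721 CPM in C group, 624, 486, 388, 556 and 449.9 CPM in S group and 2041, 430.1, 498, 1030.0 and 305 CPM in O group, with the same 2 libraries on top. Gp9 ranged from 29 to 240.3 CPM in C group, from 84.9 to 125 CPM in S group and from 57.8 to 494 CPM in O group. S group was the least spread for each of these genes.

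Between S group and O group, 1 of 9 members passed the unadjusted threshold in PBMCs, where 12.2% of 14686 genes passed in either direction and 7.8% as lower in S group. This was Itgb3, at -1.09 ± 0.46 (adjusted P = 0.379 in edgeR), whose groups overlapped. The call ended when O1 was left out (-0.51) or O4 (-0.97), or any S library, and without both O1 and O4 the value was 0.050. Gp1ba (-0.83 ± 0.47), Gp5 (-0.69 ± 0.43), Gp9 (-1.004 ± 0.53) and Itga2b (-0.89 ± 0.48) had values of like size but did not pass, and without O1 and O4 they were 0.34, 0.33, 0.39 and 0.26. Without O2, Itgb3, Gp1ba and Gp9 passed as lower in S group, and without O5 Itgb3, Gp1ba, Gp5, Gp9 and Itga2b did. In the fit without both O1 and O4, of 5 against 3 libraries, where 8.42% of all genes passed and 3.95% as higher in S group, 3 members passed in the other direction: Cd9 (0.50, adjusted P = 0.576), Itga2 (0.31, adjusted P = 0.576) and Gp9 (adjusted P = 0.59), all in edgeR. The platelet markers summed to 5953 CPM in PBMC O1 and 4211 CPM in O4, against 1032 to 1739 CPM in the other O libraries, and the neutrophil markers to 3984 and 3223 CPM against 325 to 599 CPM. Scaled to the platelet markers, Itgb3 had -0.37 and did not pass, where 1.68% of all genes passed.

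Between S group and C group, 0 of 9 members passed in PBMCs by edgeR and by DESeq2, with 2.64% of 15139 genes called by edgeR. These fits held no replicate block, with which no member's call changed. Values ran from -0.29 for Gp9 to -0.10 for Itgb1, and the 95% intervals of the fold from 0.454 to 1.54. C3 was the lowest PBMC library of C group for all 9, and without it edgeR passed Gp9 (-0.56), Itgb3 (-0.40) and Itga6 (-0.31) as lower in S group. Between O group and C group, 0 of 9 passed by either tool, with 11.9% of 14726 genes called by edgeR. Itgb3 had 0.90 ± 0.54 and Itga2b 0.65 ± 0.60, and without O1 and O4 these were -0.24 and -0.51, while Itga2 passed as lower in O group (-0.43, adjusted P = 0.543 in edgeR), as did 3.89% of all genes. The difference between tissues in the response was tested as an interaction, and 0 of 9 members passed for S against C, S against O or O against C in edgeR and in DESeq2, where 5.38%, 13.6% and 6.59% of 16498 genes passed in edgeR.

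Among the partner lists in PBMCs, the ligands Thbs1 (-1.30 ± 0.33) and Fn1 (-0.78 ± 0.33) and the sheddase Adam10 (-0.37 ± 0.16) were lower in S group than in O group, 3 of 5 tested, beside 7.8% of all genes. With 1 library left out, from 1 (without S2 or S3) to 4 of the 5 passed. Relative to platelet markers Thbs1, Fn1 and Adam10 had -0.77, -0.62 and -0.11, and 0 of 5 passed. Thbs1 and Fn1 were higher in O group than in C group (0.99 ± 0.44 and 0.54 ± 0.24), relative to platelet markers they had 0.62 and 0.21 and 0 of 5 passed, and with 1 library left out from 0 to 3 of the 5 passed, a number that changed without any C library, O1, O3, O4 or O5. Of the 18 partners, Vcl (-0.90 ± 0.35), Flna (-0.57 ± 0.23) and Rap1b (-0.20 ± 0.092) were lower in S group than in O group, 3 of 18 beside 12.2% of all genes, and without O1 and O4 0 of 18 passed. With 1 library left out from 1 (without S1, S2, S4, O1 or O4) to 7 (without O5) passed. Between O group and C group, Syk (0.27 ± 0.10) and Flna (0.51 ± 0.23) were higher in O group with TMM, 2 of 18 beside 11.9% of all genes, and relative to platelet markers they had -0.18 and -0.081. With 1 library left out from 0 (without C4 or C5) to 6 (without O5) passed, with 1 without C1, C2, C3, O1 or O4 and 4 without O2. Of the 14 other platelet glycoproteins tested, 5 were lower in S group than in O group, where 7.8% of all genes were, and relative to platelet markers 1 of 14 was. Without O1 and O4, 1 was lower and 2 were higher in S group, and with 1 library left out the number passing ran from 1 (without O1) to 8 (without O5), with 2 or 3 without O4, S1, S2, S3 or S4. The 5 included Tspan33 (-3.91 ± 1.03), Fcer1g (-0.41 ± 0.16) and Cd36 (-1.63 ± 0.63). Tspan33 (4.12 ± 1.05) and Cd36 (1.69 ± 0.64) were higher in O group than in C group. Tspan33 is also an erythroid gene, and hemoglobin took 6.52 to 24.5% of the counts of a PBMC library of O group, 3.23 to 8.62% in S group and 3.29 to 9.39% in C group, a part that was not tested. Of the 14 other integrin subunits, Itga5 (-0.49 ± 0.14) and Itgam (-0.42 ± 0.17) were lower and Itgae (0.32 ± 0.13) and 1 other higher in S group than in O group. With 1 library left out, from 1 to 3 of the 14 passed there. Itga5 was higher (0.51 ± 0.14) and Itgad (-0.65 ± 0.23) and Itga3 (-0.57 ± 0.22) lower in O group than in C group. Levels were low for Itgad (1.01 CPM in O group, 1.67 CPM in C group) and Itga3 (1.23 and 1.91 CPM). In PBMCs of S group and O group, NK cell markers summed to 281 to 330 and 135 to 251 CPM. T cell markers summed to 967 to 1357 and 684 to 981 CPM, monocyte markers to 2327 to 4306 and 3729 to 5007 CPM, a part not tested. Relative to platelet markers 0 of 14 passed in either pair, with Itga5 at -0.37, Itgam at -0.17 and Itgae at 0.37 between S group and O group, and Itga5 at 0.12, Itgad at -0.87 and Itga3 at -0.89 between O group and C group. In that scaling 1.68% of all genes passed between S group and O group and 0.767% between O group and C group. The SE of Itga5 was 0.47 and 0.68 there, so a gene that did not pass says little. Between S group and C group, where 2.64% of all genes passed, only Itga3 did so in the 5 lists, lower in S group (-0.41 ± 0.18). Itga3 was at -0.72 relative to platelet markers and did not pass, where 0.198% of all genes did. None of the 14 passed without C1, C2, C3, C5, S1, S2 or S5. In the transcription factor list 0 of 10 passed in any pair, although without O1 and O4 2 of 10 were higher in S group than in O group, beside 3.95% of all genes. None of these passed an adjusted P under 0.05 in edgeR with TMM, whereas DESeq2 passed Thbs1 (adjusted P = 0.0111) and Tspan33 (adjusted P = 0.0107) between S group and O group and Itga5 (adjusted P = 0.0316) and Tspan33 (adjusted P = 0.00526) between O group and C group. Of the genes named here for S group against O group only Thbs1, Fn1, Itga5 and Tspan33 also passed the unadjusted threshold without O1 and O4. Of those named for O group against C group, Fn1, Syk, Itga5 and Tspan33 did so. The median of the glycoprotein list between S group and O group was -0.52, against -0.000848 for all genes, and it was 0.23 without O1 and O4 and -0.053 relative to platelet markers.

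Platelets and PBMCs differed in all 9 members. With TMM normalization each was higher in platelets, without overlap between the 15 libraries of either kind, by log2 fold changes from 2.60 (Itgb1) to 4.74 (Cd9), and 9 of 9 passed an adjusted P under 0.05 in edgeR (largest adjusted P = 6.92e-13), but relative to the 10 platelet markers 7 of the 9 were lower in platelets. Of all 14342 genes tested, 36.7% were called higher in platelets and 81.5% in either direction, and the median of all genes was -0.12 with TMM and -4.69 with marker scaling, a shift of -4.57. Scaling to the markers moves every gene by about the same amount, so that its values only say whether a gene is more or less enriched in platelets than the markers are. The values were for GPIb-IX-V Gp1ba (3.76 ± 0.29 with TMM and -0.68 ± 0.18 relative to platelet markers), Gp5 (3.93 ± 0.29 with TMM and -0.50 ± 0.18 relative to platelet markers) and Gp9 (4.59 ± 0.35 with TMM and 0.16 ± 0.18 relative to platelet markers). For the fibrinogen receptor they were Itga2b (4.05 ± 0.31 with TMM and -0.37 ± 0.17 relative to platelet markers) and Itgb3 (3.64 ± 0.27 with TMM and -0.81 ± 0.18 relative to platelet markers). For the collagen and laminin subunits they were Itga2 (2.82 ± 0.17 with TMM and -1.77 ± 0.23 relative to platelet markers), Itga6 (3.39 ± 0.20 with TMM and -1.15 ± 0.20 relative to platelet markers) and Itgb1 (2.60 ± 0.17 with TMM and -2.06 ± 0.22 relative to platelet markers). The last was Cd9 (4.74 ± 0.26 with TMM and 0.19 ± 0.19 relative to platelet markers). Relative to the markers Gp9 and Cd9 did not pass (adjusted P = 0.379 and 0.334 in edgeR), while Itgb1 and Itga2, whose products also serve lymphocytes and other leukocytes, stood farthest below them.

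**Figure D5:**
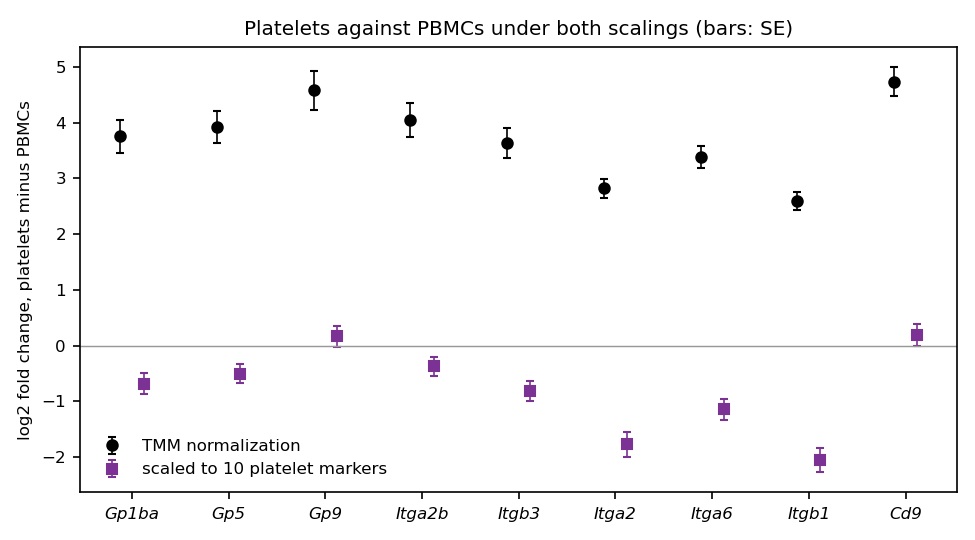
log2 fold change of platelets against PBMCs (± SE, 15 against 15 libraries, group as a covariate) with TMM normalization (circles) and scaled to 10 platelet markers (squares). With TMM all 9 genes are positive, and relative to the markers Gp9 and Cd9 lie near 0 and the other 7 are negative, Itgb1 the lowest at -2.06.

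The ratios of counts within a library, which need no scaling factor, also differed between platelets and PBMCs. The log2 ratio of Itga2b to Itgb3 was 1.77 ± 0.22 in platelets and 1.33 ± 0.20 in PBMCs (mean ± SD, n = 15 each), a difference of 0.45. That of Gp1ba to Gp9 was -2.92 ± 0.37 in platelets and -2.06 ± 0.21 in PBMCs, a difference of -0.86, and that of Gp5 to Gp9 was -1.40 ± 0.39 in platelets and -0.75 ± 0.21 in PBMCs, a difference of -0.66. Each had a permutation p of 1e-05, the smallest that 100000 resamples can give (5.33e-05 after adjustment over 16 tests). So the mRNAs of subunits of the same receptor stood in different proportions in the 2 preparations: beside its partner, Itgb3 was higher in PBMCs than in platelets, and beside Gp9 so were Gp1ba and Gp5. Such a shift was not particular to subunits of a receptor. The log2 ratio of Pf4 to Itga2b averaged -0.48, -0.58 and -0.26 in platelets of C, S and O group. In PBMCs it averaged -1.23, -1.26 and -1.22, a shift that was not tested. Gene content of leukocytes in either preparation was not separated from that of platelets, and the members were tested in bulk only.

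The lists around the receptors were read in the same comparison with TMM. There 36.7% of all genes were called higher in platelets and 81.5% in either direction. Relative to platelet markers, which moves every gene down by about the same amount, no gene of the 5 lists passed as higher in platelets. With TMM, 17 of 18 cytoplasmic partners were higher in platelets, among them Ilk (4.73 ± 0.24), Skap2 (2.97 ± 0.17) and Rap1b (2.41 ± 0.12). Of the other integrin subunits, 12 of 13 passed, beside 81.5% of all genes in either direction. Of the 13, 9 were lower in platelets, among them Itga5 (-2.40 ± 0.15) and Itgax (-2.42 ± 0.15), and 3 higher, among them Itgb5 (3.90 ± 0.21, but -0.67 relative to the markers). Of the 10 megakaryocyte transcription factors 10 were higher with TMM, among them Tal1 (3.70 ± 0.26) and Gata1 (3.18 ± 0.28). Other platelet glycoproteins were higher in 13 of 14 with TMM. That list shares Gp6, Clec1b and Treml1 with the markers. Among the ligands, Vwf had 4.20 ± 0.30 with TMM and -0.22 relative to the markers, and the sheddase Adam17 was lower in platelets with TMM (-1.49 ± 0.12).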

How the data were processed

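RNA of pooled platelets and PBMCs from mouse blood was sequenced as poly-A libraries made without strand marks. Sequencing and alignment were done by a sequencing company, the submitters' processing notes name HISAT2 2.0.5 and featureCounts 1.5.0-p3, and the authors deposited raw counts per gene, which were used as deposited. The notes name build mm9, whereas 54409 of the 54532 gene IDs are in GENCODE M21 of GRCm38, whose coordinates and exon lengths are given here. Whether reads shared by overlapping genes were counted is not given in the sources used here. Hemoglobin mRNA takes counts from other genes, which lowers their depth but not the ratios between them.

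Groups came from the sample labels. The cell type label of the platelet samples names PBMCs, and their titles and source were used instead. Total counts were 12259036 to 25360080 in platelets and 13390983 to 15973449 in PBMCs. Each pair of groups was fitted on its own over all genes that passed filterByExpr, with TMM factors and edgeR 4.0.16's quasi-likelihood F test (R 4.3.3), at the study's unadjusted P of 0.05 and with Benjamini-Hochberg adjustment. Platelets were set against PBMCs with group as a covariate, at an adjusted P of 0.05, and the tissue by group interaction was fitted over all 30 libraries. DESeq2 1.42.0, RLE factors, all genes with at least 1 count, all 3 groups in one fit, the replicate block and leaving out each library were alternatives. Libraries of like number may or may not share mice. In O group, platelet and PBMC pools of like number held equal numbers of mice, and their deviations from group means correlated at r = 0.063 to 0.609. The main tests of platelets against PBMCs treat all 30 libraries as separate. Deviations of libraries of like number correlated at over 0.1 in all 5 pairs only for PBMCs of S and C group (r = 0.274 to 0.565). A pairing there would rest on these values alone. The values printed for that comparison come from the fit without the block, and no member's call changed with it. P-values measure the spread between pools. Ratios of counts (0.5 added) were tested by exact permutation, or with 100000 resamples for 15 against 15 (scipy 1.17.1), two-sided. No 2 libraries of a group agreed within sampling noise.

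The members and lists were chosen with earlier results of these data known. All members are named, with up to 3 genes of smallest P past the threshold per list and comparison and the 10 genes with the highest r over the 15 platelet libraries. The fits were tested on simulated counts.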

Additional observations from a re-analysis of the deposited data

How the results depend on the processing

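Platelet against PBMC values of the 9 members kept their direction and call in 72 of 81 alternatives other than leaving out a library and in 270 of 270 that left out 1 library. Of 360 such alternative values for pairs of groups, 313 kept direction and side of the threshold, as did 477 of 540 with 1 library left out. The count of members called stayed at 0 for platelets O against C under every alternative tried. For PBMCs S against O the count of 1 became 3 with all genes of at least 1 count, 0 when scaled to platelet markers and 3 (all higher in S group) without the O pools of 3 mice, and 0 to 5 with 1 library left out, with 0 without any S library, O1 or O4, 3 without O2 and 5 without O5. A count of 0 became 1 for platelets S against O with all genes of at least 1 count (Gp1bb, which cannot be read) and 1 for PBMCs O against C without the O pools of 3 mice (Itga2). With 1 library left out the count ran from 0 to 2 for platelets S against C (2 without C3 or S3) and from 0 to 3 for PBMCs S against C (3 without C3). Scaling to platelet markers moved the median of all genes by 0.17 for platelets S against C, 0.25 for platelets O against C, -0.27 for PBMCs S against C and -0.36 for PBMCs O against C. Of the counts for the 5 lists around the receptors, 89 of 450 with 1 library left out and 56 of 245 under the other alternatives moved by over 1.5 times. The cause of these changes was not tested.

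Without the O pools of 3 mice, the log2 fold change took the other sign for platelets S against O Gp1ba 0.22, Gp9 0.18, Itga2b 0.14 and Itga6 -0.059, for platelets O against C Gp9 -0.42, Itga2b -0.32 and Itgb3 -0.081, for PBMCs S against O Gp1ba 0.34, Gp5 0.33, Gp9 0.39, Itga2b 0.26, Itgb3 0.050, Itga2 0.31, Itga6 0.18 and Itgb1 0.035, for PBMCs O against C Gp1ba -0.62, Gp5 -0.51, Gp9 -0.70, Itga2b -0.51, Itgb3 -0.24, Itga6 -0.32 and Itgb1 -0.15. Scaled to platelet markers, the log2 fold change took the other sign for platelets S against C Gp5 0.17, Itga2b 0.076, Itgb3 0.20, Itga6 0.014 and Cd9 0.13, for platelets O against C Gp1ba 0.000884, for PBMCs S against C Gp5 0.077, Itga2b 0.021 and Cd9 0.015, for PBMCs S against O Itga2 0.26, Itga6 0.080 and Itgb1 0.039, for PBMCs O against C Itga6 -0.16 and Itgb1 -0.23, for platelets against PBMCs Gp1ba -0.68, Gp5 -0.50, Itga2b -0.37, Itgb3 -0.81, Itga2 -1.77, Itga6 -1.15 and Itgb1 -2.06. With the replicate number as a block, the count for PBMCs S against O became 0 (Itgb3 -0.70, not called), and the counts of members called changed in no other comparison. With the replicate block, the log2 fold change took the other sign for platelets S against C Itgb3 0.018, for PBMCs S against C Gp5 0.031, for PBMCs S against O Itga2 0.014. With all genes of at least 1 count, the log2 fold change took the other sign for platelets S against O Itga6 -0.0053, for PBMCs S against O Itga2 0.0027. Leaving out 1 library at a time, it took both signs for platelets S against C Gp1ba -0.55 to 0.0075, Gp5 -0.30 to 0.31, Gp9 -0.48 to 0.080, Itga2b -0.38 to 0.15, Itgb3 -0.28 to 0.25 and Cd9 -0.25 to 0.11, for platelets S against O Gp5 -0.15 to 0.21, Itga2 -0.30 to 0.19 and Itga6 -0.17 to 0.31, for platelets O against C Gp1ba -0.34 to 0.34, Gp5 -0.34 to 0.26, Gp9 -0.023 to 0.63, Itga2b -0.047 to 0.49 and Itgb1 -0.35 to 0.070, for PBMCs S against C Gp1ba -0.50 to 0.0023, Gp5 -0.42 to 0.076, Gp9 -0.56 to 0.018, Itga2b -0.48 to 0.049, Itgb3 -0.40 to 0.036 and Cd9 -0.37 to 0.016, for PBMCs S against O Itga2 -0.12 to 0.15 and Cd9 -0.042 to 0.28, for PBMCs O against C Itga2b -0.0036 to 0.93, Itga6 -0.11 to 0.33 and Itgb1 -0.035 to 0.21. The log2 ratio differences that did so were Gp1bb to Gp9 (Platelet S against C) -0.79 to 0.10, Gp1ba to Gp9 (Platelet S against C) -0.21 to 0.084 and Gp1ba to Gp9 (Platelet S against O) -0.017 to 0.27. Without the O pools of 3 mice, the differences of Gp1ba to Gp9 (Platelet S against O) became -0.000185, Gp1bb to Gp9 (Platelet O against C) became -0.091 and Gp5 to Gp9 (Platelet O against C) became 0.18.

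The number of pools limits these results, since 5 pools a group leave the intervals given above, and the number of mice in a pool differs between the groups and cannot be told apart from them in platelets of S group against O group. Scaling to markers, leaving out the O pools of 3 mice and the ratios to Itga2b were chosen after the data had been seen.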

Other observations

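Gp1bb had 24 and 39 counts in platelet libraries O1 and O4 and 0 to 20 in the other 13. Counts assigned to Sept5, whose exons overlap it, came to 20.1 and 26.8 CPM in the same 2 libraries, above the other 13, but 83.7% of the exon bases of Sept5 are themselves shared with Gm49601 or Gp1bb, so that these counts belong to no single gene. The ratio of Gp5 to Gp9 counts was 0.22 and 0.207 in O1 and O4 and 0.313 to 0.544 in the other 13 platelet libraries. These values were noticed in the data and were not tested.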
